A study of Mus musculus with 12 samples.

Results

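The genes described here are the Wnt ligands, their receptors and the usual readout genes of the pathway, in mouse cartilage progenitor cells that were first driven toward cartilage and then toward bone. Members were taken by symbol, as all genes named Wnt or Fzd with a number, plus Lrp5, Lrp6, Ror1, Ror2, Ryk, Rspo1 to Rspo3, Lgr4 to Lgr6, Axin2, Lef1, Tcf7, Nkd1, Nkd2, Notum, Rnf43, Znrf3 and Ctnnb1. They came to 49 of the 28244 genes listed: 19 ligands, 10 frizzled receptors, 5 co-receptors or other Wnt receptors, 3 R-spondins, 3 R-spondin receptors, 8 target or feedback genes and beta-catenin. The cells were of the strain C57/BL6, with no genotype label, and came from the cartilaginous ends of the femur and tibia of pups 5 or 6 days old, released by collagenase D and kept 1 day on plastic before pelleting. By the study's methods, cells not taken for flow cytometry after plating were frozen for later use. All are primary cells, neither a clone nor sorted on a surface marker before culture as far as the sources used here say, and the study describes them by flow cytometry as a homogeneous progenitor population. All pellets had 7 days of chondrogenic medium, and the 4 groups are the end of that phase (D7) and 1, 3 and 21 days of osteogenic medium (D8, D10 and D28). Each group has 3 libraries from poly-adenylated RNA, and no library was kept in chondrogenic medium past D7, so days in culture and the change of medium cannot be told apart.

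Wnt proteins are secreted, lipid-bearing signals that bind a frizzled receptor on the receiving cell. With the co-receptors Lrp5 and Lrp6 they stabilise beta-catenin, which acts with Tcf/Lef factors on target genes, many of which restrain the pathway. With Ror1, Ror2 or Ryk, ligands such as Wnt5a act mainly without beta-catenin, on cell polarity and movement. R-spondins bind Lgr4, Lgr5 and Lgr6 and keep Rnf43 and Znrf3 from removing frizzleds from the cell surface. In growth plate cartilage and bone the pathway is known to promote osteoblast over chondrocyte fate and to raise bone mass.

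The values are log2 of an equalized read count plus 1, so a difference of 1 is a doubling, and they were made equal in distribution between libraries by the authors. A library's total read number is not kept in them. The lowest values still sit on steps of single reads, from which relative depth came to 0.790 to 1.06 for D7, 0.962 to 1.22 for D8, 0.730 to 1.05 for D10 and 1.205 to 1.31 for D28. A level of 3 reads was a log2 value of at most 2.87. Where all libraries of a time point were at or under it, the fold is given as a bound, and where some were, the difference with low values raised to it is given beside the fitted one. Such levels cover counting error only. Nothing in the labels says that the replicates are separate cultures, so p-values measure the spread between these libraries, which may be technical.

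The cells' identity was checked on marker lists. All 6 chondrocyte markers were present in every library. Col2a1, the main collagen of cartilage, held the highest value of the table in the 9 libraries of D7, D8 and D28 and the second highest in the 3 of D10, so its value is set by the authors' equalizing. The other 5 chondrocyte markers summed to 18.7 to 18.8 on the log2 scale at D7, 18.4 to 19.2 at D8, 17.1 to 17.5 at D10 and 18.4 to 18.6 at D28. All 6 osteoblast markers were present, with sums of 18.5 to 19.1 at D7, 17.3 to 18.4 at D8, 16.7 to 17.6 at D10 and 17.4 to 17.6 at D28. At D10, 4 of the 6 chondrocyte markers were lower than at D7 and none higher, and of the 6 osteoblast markers 4 were lower and 1, Bglap (osteocalcin), was higher by 3.25, or 2.97 with low values raised. At D28 against D7, Col9a1 (-1.71) was the only chondrocyte marker called, and of the osteoblast markers Bglap was higher (5.77, or 5.49 with low values raised) and Ibsp (-1.49) and Col1a1 (-1.42) lower. The 5 adipocyte markers summed to 11.9 to 12.1 at D7, 10.7 to 11.2 at D8, 9.71 to 10.4 at D10 and 14.8 to 15.2 at D28. All 5 were lower at D10 than at D7 and higher at D28 than at D7. Lep held no more than 3 reads in each D10 library, so its fall was at least 1.51-fold. Cidec was lower at D10 by -2.88, or -2.40 with low values raised. The 4 skeletal muscle markers summed to 10.8 to 11.2 at D7, 7.86 to 8.24 at D10 and 4.93 to 6.52 at D28, with all 4 lower at D10 and at D28 than at D7. Myod1 held no more than 3 reads in each library of D10 and D28, at least 6.45-fold below D7 at both. Myog at D28 was lower than at D7 by -6.26, or -4.72 with low values raised. The 4 endothelial markers were low, with sums of 3.26 to 7.48. At these few reads Kdr and Pecam1 were called higher at D8 than at D7, Kdr also at D10, and Cdh5 lower at D28. Kdr held no more than 3 reads in each D7 library, so its rise was at least 1.3-fold at D8 and 2.06-fold at D10. Cdh5 held no more than 3 reads in each D28 library, so its fall was at least 1.06-fold. Of the 4 osteoclast markers Calcr was at 0 in all libraries and Dcstamp at no more than 3 reads, while Acp5 lay between 7.06 and 8.79 and was higher at D28 than at D7 by 1.13. The 5 macrophage markers summed to 7.72 to 8.04 at D7, 8.39 to 8.76 at D8, 8.86 to 9.95 at D10 and 8.54 to 10.3 at D28. At D10, Cd68 was higher (1.88) and Adgre1 lower (-2.18, or -1.88 with low values raised) than at D7, and Csf1r was at 7.92 in D28 replicate 2 against 4.72 and 5.13 in the other D28 libraries. At D28 Mrc1 alone of these 5 was called against D7 (2.94). The part of these cell types in the Wnt gene differences was not tested, and in pellets sequenced as a whole, fewer cells of a type and less RNA per cell cannot be told apart.

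Promoter sequences, from 250 bases before to 50 bases after an annotated start in RefSeq (GRCm38.p6), were matched by symbol to 34 of the 49 members. They were searched for CTTTGAT on both strands, the other strand reading ATCAAAG, the core bound by Tcf/Lef factors. No other motif was searched. CTTTGAT occurred in 2 of the 34 members (5.88%), Wnt11 and Wnt5b, close to the share of all genes with a promoter, 1160 of 27025 (4.29%). None of the 6 target or feedback genes with a promoter held these letters, which says nothing of their regulation from elsewhere. The Wnt11 and Wnt5b windows are shown because they carry the match and because both ligands were lower at D10 and D28 than at D7. Any part of the match in these differences was not tested. Each is written 5′ to 3′ along its gene, with the match in capitals. The Wnt11 window is chr7:98834862-98835161 on the plus strand, 1 of 2 starts annotated there for Wnt11, with the match 51 bases before it, and the Wnt5b window is chr6:119449337-119449636 on the minus strand, 1 of 3 starts for Wnt5b, with the match 71 bases before it. The windows of the other starts of both genes held no match.
Wnt11: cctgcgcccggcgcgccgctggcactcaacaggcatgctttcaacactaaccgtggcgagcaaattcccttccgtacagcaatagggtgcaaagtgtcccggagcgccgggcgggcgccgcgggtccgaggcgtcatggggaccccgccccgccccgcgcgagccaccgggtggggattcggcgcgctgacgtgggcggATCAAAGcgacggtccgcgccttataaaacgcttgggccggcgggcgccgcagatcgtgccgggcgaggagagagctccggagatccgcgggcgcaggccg
Wnt5b: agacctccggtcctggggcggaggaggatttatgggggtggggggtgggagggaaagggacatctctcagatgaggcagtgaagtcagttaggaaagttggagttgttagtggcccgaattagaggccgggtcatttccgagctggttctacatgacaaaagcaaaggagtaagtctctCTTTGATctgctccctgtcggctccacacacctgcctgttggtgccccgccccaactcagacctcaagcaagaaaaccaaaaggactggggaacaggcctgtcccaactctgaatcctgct

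Of the 49 members, 43 could be tested, that is passed a log2 value of 1 in 3 or more libraries. The other 6 were ligands: Wnt1 and Wnt9b were at 0 in all 12 libraries, and Wnt3, Wnt3a, Wnt7a and Wnt8b were at 0 in 9 or 10 of them. A gene is called higher or lower here when it differed by at least 1 on the log2 scale with an adjusted p under 0.05 in the limma fit over all 17674 genes tested. By that rule 30 members were called in at least 1 of the 5 comparisons and 13 in none. The matching share of all genes was not counted, so this tally is not read as a result about the members. The 13 were Axin2, Lef1, Rnf43, Znrf3, Ctnnb1, Lrp6, Ryk, Fzd5, Fzd6, Fzd7, Wnt2, Wnt8a and Wnt10a, of which Rnf43, Wnt2, Wnt8a and Wnt10a held few reads.

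In the first day of osteogenic medium (D8 against D7), 4 members were higher (9.30% of 43, beside 3.23% of all genes) and 4 lower (9.30%, beside 3.81%). Between D8 and D10, 1 was higher (2.33%, beside 4.08%) and 10 lower (23.3%, beside 5.58%). Over the first 3 days (D10 against D7), 4 were higher (9.30%, beside 8.50%) and 14 lower (32.6%, beside 10.4%). Between D10 and D28, 13 were higher (30.2%, beside 13.8%) and 9 lower (20.9%, beside 13.7%). Over the whole osteogenic phase (D28 against D7), 8 were higher (18.6%, beside 8.63%) and 10 lower (23.3%, beside 8.66%). The members' share thus stood furthest above the background among lower calls at D10, and it was close to the background for higher calls at D10. The small counts of higher calls rested on single libraries: the 4 of D8 against D7 became 2 without D7 replicate 1 or D8 replicate 2, the 4 of D10 against D7 became 2 without D7 replicate 1 or 3, and the 1 of D10 against D8 was lost without any 1 of D7 replicate 1, D8 replicates 2 and 3 and D10 replicates 1 and 2. In the order of these 5 comparisons, the median difference over the members was -0.14, -0.22, -0.12, 0.13 and -0.18. Over all genes it was 0.026, 0, 0.053, -0.10 and -0.032 in the same order. With genes at or under 3 reads placed at their bound, the member medians were -0.14, -0.20, -0.11, 0.099 and -0.15. Comparisons that use the same time point share its libraries, so the calls on both sides of D10 are not independent of each other.

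**Figure D1:**
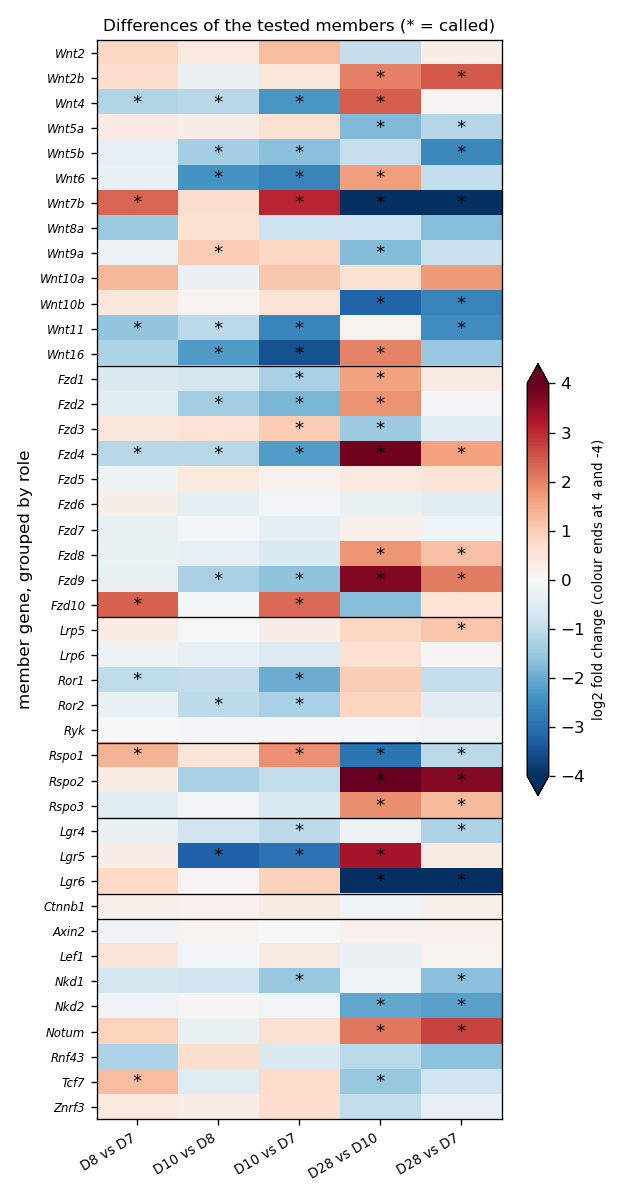
Log2 fold change of the 43 tested members (rows, grouped by role) in the 5 comparisons (columns), with an asterisk on each called difference and colours ending at 4 and -4. D10 against D7 holds 14 lower calls of 43, D28 against D10 holds 13 higher calls, and the rows of Axin2, Lef1 and Ctnnb1 hold none.

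Among the ligands, Wnt11, Wnt4 and Wnt5b were the leading transcripts at D7 and fell in the first 3 days of osteogenic medium. Wnt11 and Wnt5b were still low at D28, while Wnt4 was back at its D7 level. Of the 13 ligands tested, 5 were lower (38.5%, beside 10.4% of all genes) and 1 higher (7.69%, beside 8.50%) at D10 than at D7. At D28 against D7 again 5 were lower (38.5%, beside 8.66%) and 1 higher (7.69%, beside 8.63%), so the higher calls were close to the background.

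Wnt11, a ligand that acts mainly without beta-catenin (chromosome 7, 98835112 to 98855195, plus strand), had values of 10.14, 9.95 and 10.08 at D7 and 8.17, 8.73 and 8.53 at D8. It had 7.19, 7.41 and 7.72 at D10 and 8.03, 7.14 and 7.55 at D28. All 3 D7 libraries stood above the other 9, and the D10 and D28 libraries overlapped. The log2 fold change, with its standard error (SE) and adjusted p, was -1.58 (SE 0.21, adjusted p = 9.4e-05) after 1 day, -2.62 after 3 days and -2.49 (SE 0.21, adjusted p = 2.5e-07) at D28. The further step from D8 to D10, -1.04, was no longer called without D8 replicate 2 or without D10 replicate 1 (-0.91 in each case).

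Wnt4, a ligand of skeletal and kidney development (chromosome 4, 137277489 to 137299726, plus strand), had values of 10.19, 9.45 and 10.31 at D7, 8.66, 8.81 and 8.86 at D8 and 7.19, 7.95 and 7.85 at D10. At D28 it had 10.48, 10.18 and 9.58. The D8 libraries lay between the D7 and D10 ones without overlap, and the D28 libraries overlapped those of D7. Against D7 the difference was -1.21 (SE 0.25, adjusted p = 0.0029) at D8, -2.32 (SE 0.25, adjusted p = 2.7e-06) at D10 and 0.09 (SE 0.25, adjusted p = 0.81) at D28, so only the last was not called. From D10 to D28 Wnt4 rose by 2.41. Its step from D8 to D10, -1.11, was not called without D10 replicate 1 (-0.88).

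Wnt5b, which is known to regulate chondrocyte maturation (chromosome 6, 119432531 to 119544347, minus strand), held 9.03, 8.42 and 9.14 at D7 and 8.33, 8.61 and 8.67 at D8. It then held 6.81, 7.49 and 7.27 at D10 and 6.85, 6.23 and 5.74 at D28. The D7 and D8 libraries overlapped and stood above all D10 and D28 libraries. The log2 fold change was -0.33 (SE 0.27, adjusted p = 0.43) at D8, -1.67 (SE 0.27, adjusted p = 0.00013) at D10 and -2.59 (SE 0.27, adjusted p = 1.9e-06) at D28. The D10 and D28 libraries overlapped, at 6.81 and 6.85, and the difference between these time points (-0.92 (SE 0.27, adjusted p = 0.009)) was not called, although it was called without D10 replicate 1 (-1.11) or D28 replicate 1 (-1.202).

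A second set of ligands was higher or level in the early osteogenic phase and low at D28. Wnt7b, a ligand that promotes osteoblast differentiation (chromosome 15, 85535437 to 85582473, minus strand), moved furthest of all members. It stood at 5.46, 5.48 and 6.28 at D7, 8.27, 8.27 and 7.69 at D8 and 8.61, 8.77 and 8.99 at D10, and at D28 it stood at 0, 0 and 1.5, that is no more than 3 reads in any library. The libraries of no time point overlapped those of another, with D10 above the rest and D28 below. The log2 fold change was 2.34 (SE 0.38, adjusted p = 0.00052) at D8 and 3.05 (SE 0.38, adjusted p = 1.3e-05) at D10, an 8.29-fold difference. At D28 Wnt7b was at least 60.4-fold lower than at D10 and at least 7.28-fold lower than at D7, with values under the 3-read level raised to it (adjusted p = 1.6e-10 and 5.3e-08 in the limma fit).

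Wnt5a, the main ligand of the Ror receptors (chromosome 14, 28504750 to 28527448, plus strand), varied less. Its values were 9.17, 9.02 and 9.30 at D7, 9.61, 9.62 and 9.27 at D8, 9.58, 9.87 and 9.83 at D10 and 8.06, 7.97 and 7.99 at D28. The D28 libraries were the lowest 3 of the 12, and the D10 libraries lay above those of D7. The D10 to D7 difference, 0.60 (SE 0.13, adjusted p = 0.0016), stayed under the fold threshold. At D28 Wnt5a was lower than at D10 by a log2 fold change of -1.75 (SE 0.13, adjusted p = 2.6e-08) and lower than at D7 by one of -1.15 (SE 0.13, adjusted p = 4.7e-06).

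Wnt10b, a beta-catenin ligand that favours bone over fat formation (chromosome 15, 98770712 to 98778150, minus strand), had 6.77, 6.22 and 6.44 at D7, 6.77, 7.57 and 6.47 at D8 and 6.97, 7.18 and 6.95 at D10. At D28 it had 3.75, 4.53 and 3.17, all below the other 9 libraries. The fall was -2.66 (SE 0.35, adjusted p = 2e-05) against D7 and -3.21 (SE 0.35, adjusted p = 1.5e-06) against D10, a 9.27-fold difference. In the same D28 libraries the summed adipocyte markers were at 14.8 to 15.2, against 9.71 to 10.4 at D10, and their part in this result was not tested.

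Wnt9a, a ligand of joint formation (chromosome 11, 59306928 to 59333552, plus strand), held 5.59, 5.43 and 5.92 at D7, 5.93, 5.59 and 4.86 at D8, 6.97, 6.35 and 6.15 at D10 and 5.01, 4.12 and 5.10 at D28. The D10 libraries were above all others, and the D28 libraries overlapped those of D8. The fall from D10 to D28 was -1.74 (SE 0.36, adjusted p = 0.00069). The rise from D8 to D10, 1.03 (SE 0.36, adjusted p = 0.041), was the only higher call in that comparison and was lost under 8 alternatives, among them those without D8 replicate 3 (0.73) or D10 replicate 1 (0.79). Wnt9a was not called at D28 against D7 (-0.90), except without D28 replicate 3 (-1.08).

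Wnt2b (chromosome 3, 104945272 to 104961921, minus strand) was the only ligand called higher at D28 than at D7. It had 3.93, 3.55 and 4.42 at D7, 4.37, 5.12 and 4.43 at D8, 4.16, 4.74 and 4.31 at D10 and 5.97, 7.01 and 6.28 at D28. All 3 D28 libraries lay above the other 9. The rise was 2.45 (SE 0.37, adjusted p = 9.2e-05) against D7 and 2.01 (SE 0.37, adjusted p = 0.0003) against D10. Wnt16, a ligand of cortical bone and joint cartilage (chromosome 6, 22288227 to 22298522, plus strand), was low, with 5.92, 4.36 and 5.43 at D7, 5.01, 3.95 and 3.07 at D8, 3.26, 0 and 1.97 at D10 and 3.90, 3.37 and 3.91 at D28. Only the D10 fall against D7, -3.50 (SE 0.71, adjusted p = 0.00094), held under all alternatives, and it was -2.24 with low values raised to the 3-read level. The fall from D8 to D10 (-2.27) was lost with low values so raised (-1.01), became -1.39 without D10 replicate 2, with an adjusted p of 0.11, and was also lost without D8 replicate 1 or 2. The rise from D10 to D28 (1.98) was likewise lost with low values raised (0.72), became 1.11 without D10 replicate 2 and was also lost without D28 replicate 1 or 3.

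The remaining tested ligands were few reads deep. Wnt6 was at 3.07 to 3.45 at D7 and at no more than 3 reads at D10, and its called falls at D10 against D7 and D8 and its rise from D10 to D28 were all lost when low values were raised to the 3-read level, the first being then at least 1.36-fold. Wnt10a lay between 0 and 3.91, Wnt2 between 0 and 2.17 and Wnt8a between 0 and 2.50, and none was called in the main fit. Wnt10a at D28 against D7 was called without D7 replicate 3 (2.52, adjusted p = 0.027 by limma). Wnt2 and Wnt8a held no more than 3 reads in all 12 libraries. Under the study's rule Wnt2 was called at D10 against D7 (1.22). Wnt8a was called under several alternatives, among them D28 against D7 with no filter on low values (-1.71). Wnt6 and Wnt10a lie 6194 bases apart on chromosome 1, on the same strand. Wnt10b lies 11707 bases from Wnt1 on chromosome 15 and Wnt9a 16176 bases from Wnt3a on chromosome 11, and in both pairs the neighbour was at 0 in 9 or more of the 12 libraries.

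**Figure D2:**
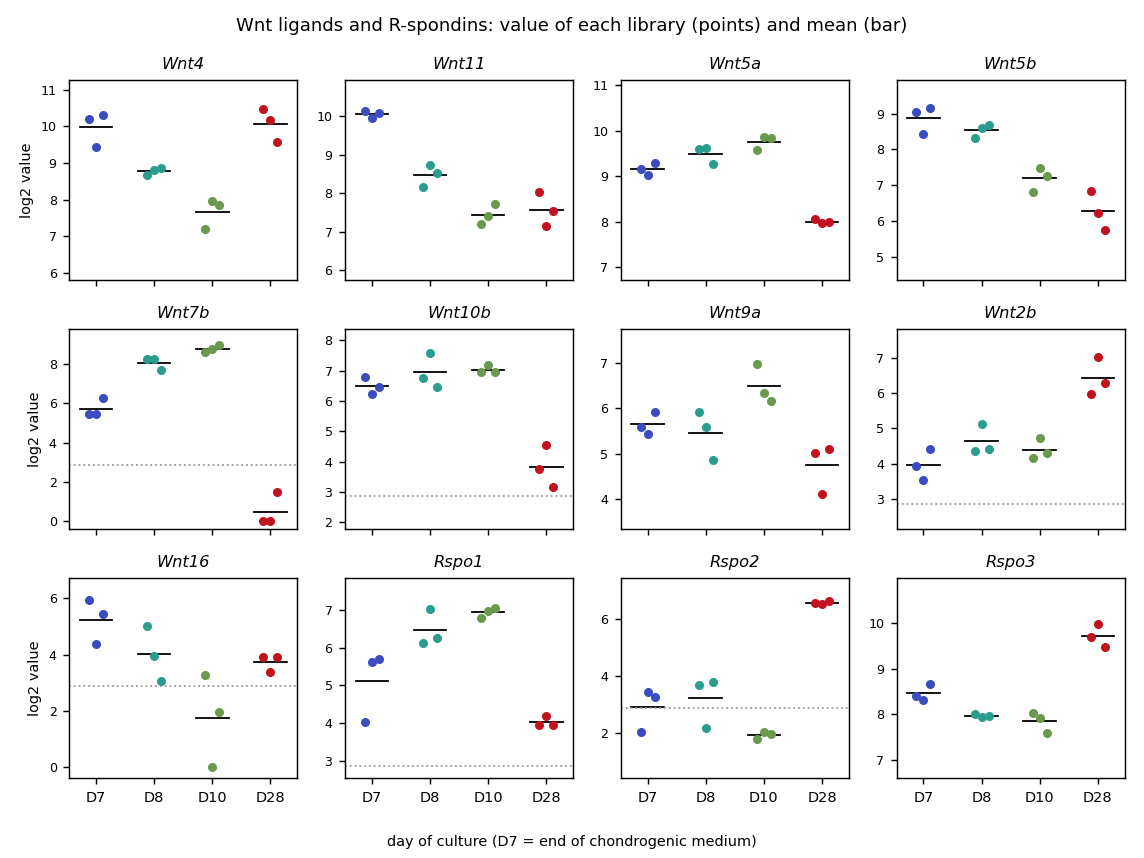
Deposited log2 value of each of the 12 libraries (points) and the mean of 3 libraries (bar) for 9 ligands and the 3 R-spondins at D7, D8, D10 and D28; the dotted line is the highest 3-read level, 2.87. Wnt7b climbs to D10 and lies at 0, 0 and 1.5 at D28, Wnt4 dips at D10, and Rspo2 is at 6.53 to 6.66 at D28 only.

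To compare genes with each other, the values were unlogged and divided by the length of the gene's merged exons in kilobases, and each ligand was taken as a share of the sum over the 19 ligands. At D7, Wnt11 made up 31.5% ± 4.36 (SD, n = 3), Wnt4 29.5% ± 3.61 and Wnt5b 21.4% ± 1.57, so Wnt11 and Wnt4 did not differ beyond their spread. At D8 the order was Wnt5b with 25.6% ± 3.29, Wnt4 with 19.1% ± 1.85, Wnt5a with 16.9% ± 2.05 and Wnt11 with 15.8% ± 2.12. The last 3 lay within their spread of each other, and Wnt7b had reached 10.2% ± 2.02. At D10, Wnt5a made up 26.1% ± 0.151 and Wnt7b 21.3% ± 1.88, ahead of Wnt5b with 13.0% ± 1.75 and Wnt4 with 11.4% ± 1.88. By the length of the longest transcript in place of merged exons, Wnt7b (25.9%) stood before Wnt5a (24.6%) at D10, so that order rests on the length used. At D28, Wnt4 made up 62.8% ± 4.75, ahead of Wnt11 with 11.4% ± 3.11 and Wnt5a with 8.11% ± 1.86, and Wnt7b was at 0.0392%. The summed ligand level per kilobase, on the unlogged scale, went from 832 ± 154 at D7 to 549 ± 49.0 at D8 and 426 ± 46.7 at D10, and came to 419 ± 99.3 at D28. The ligand pool at D28 was thus about as large as at D10, within the spread, but most of it was Wnt4.

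**Figure D3:**
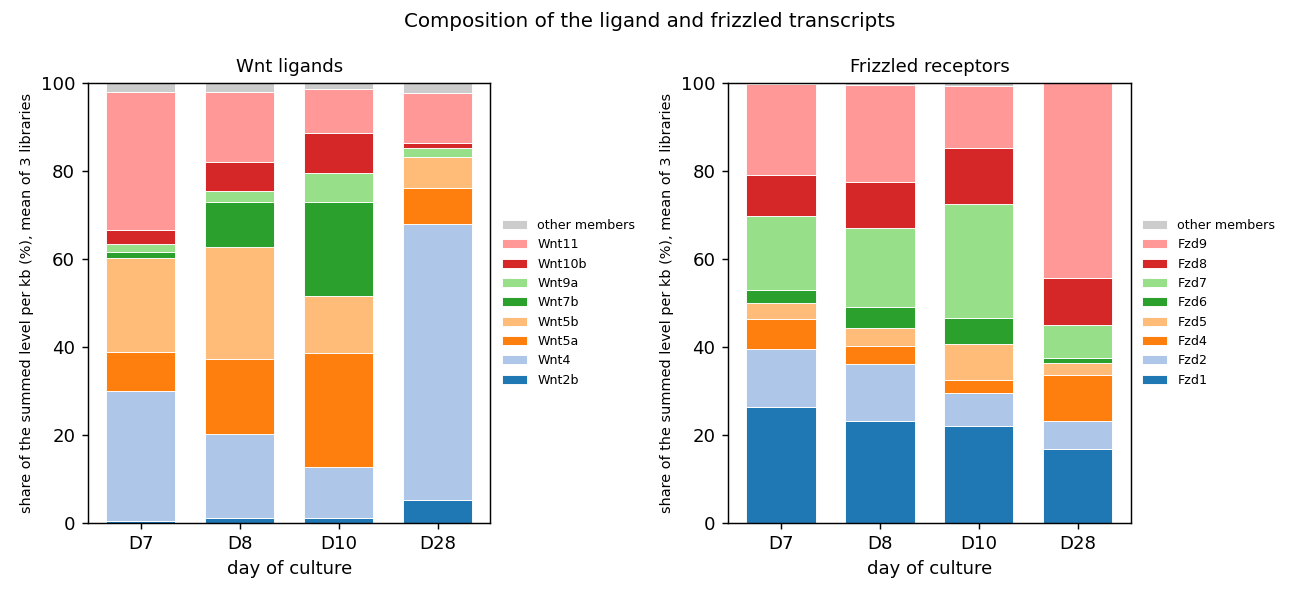
Share of each gene in the summed level per kilobase (percent, mean of 3 libraries) of the 19 ligands (left) and the 10 frizzleds (right) at D7, D8, D10 and D28; members under 3% at all time points are pooled in grey. Wnt4 widens from 11.4% at D10 to 62.8% at D28, and Fzd9 from 14.0% to 44.3%.

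Of the 10 frizzled receptors, all tested, 4 were lower (40%, beside 10.4% of all genes) and 2 higher (20%, beside 8.50%) at D10 than at D7. The 2 higher calls, Fzd3 and Fzd10, were both lost without D7 replicate 1 or without D7 replicate 3, which leaves 0. At D28 against D7, 3 were higher (30%, beside 8.63%) and none lower. Between D10 and D28, 5 were higher (50%, beside 13.8%) and 1 lower (10%, beside 13.7%). Frizzleds are the 7-pass membrane receptors that Wnt proteins bind first. Fzd1, Fzd2, Fzd4 and Fzd9 had their lowest values at D10 and were higher again at D28.

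Fzd4 (chromosome 7, 89404355 to 89413134, plus strand) had 10.05, 9.79 and 10.14 at D7, 8.87, 8.66 and 9.10 at D8, 7.62, 7.91 and 7.73 at D10 and 11.73, 11.57 and 11.54 at D28. Its 4 time points did not overlap. The log2 fold change was -1.12 (SE 0.13, adjusted p = 3.8e-05) at D8, -2.24 (SE 0.13, adjusted p = 8.4e-09) at D10 and 1.62 (SE 0.13, adjusted p = 2.1e-07) at D28, and from D10 to D28 it was 3.86 (SE 0.13, adjusted p = 7.7e-12), a 14.5-fold rise. Fzd9 (chromosome 5, 135248938 to 135251230, minus strand) had 10.22, 9.80 and 10.18 at D7, 9.91, 9.46 and 9.90 at D8, 7.97, 8.52 and 8.89 at D10 and 12.27, 12.16 and 12.01 at D28. Here D7 and D8 overlapped, D10 lay below and D28 above them. Its difference was -1.61 (SE 0.19, adjusted p = 9e-06) at D10 and 2.08 (SE 0.19, adjusted p = 6.8e-07) at D28, and the rise from D10 to D28 was 3.69, or 12.9-fold.

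Fzd1 (chromosome 5, 4753839 to 4758035, minus strand) had 11.28, 10.98 and 11.57 at D7, 10.67, 10.58 and 10.81 at D8, 9.82, 10.12 and 10.05 at D10 and 11.37, 11.77 and 11.65 at D28. Fzd2 (chromosome 11, 102604396 to 102608058, plus strand) had 10.12, 9.92 and 10.28 at D7, 9.66, 9.52 and 9.82 at D8, 7.97, 8.38 and 8.47 at D10 and 9.96, 10.25 and 9.96 at D28. In both genes the D10 libraries were the lowest 3, and D28 overlapped D7. At D10, Fzd1 was lower than at D7 by a log2 fold change of -1.28 (SE 0.14, adjusted p = 4.4e-06) and Fzd2 by one of -1.83 (SE 0.15, adjusted p = 1.5e-07). At D28 they differed from D7 by 0.32 and -0.05, neither called, after rises from D10 of 1.60 and 1.78.

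Fzd8 had 10.28, 10.05 and 10.60 at D7, 10.16, 10.06 and 9.92 at D8, 9.21, 10.07 and 9.86 at D10 and 11.45, 11.57 and 11.43 at D28. The first 3 time points overlapped, and the D28 libraries lay above them all. Fzd8 was higher at D28 by 1.17 (SE 0.18, adjusted p = 0.00011) against D7 and by 1.77 against D10. Fzd3, a receptor of planar cell polarity (chromosome 14, 65192449 to 65262463, minus strand), ran the other way, with 5.31, 5.85 and 5.56 at D7, 6.20, 5.99 and 5.85 at D8, 6.64, 6.52 and 6.58 at D10 and 5.43, 5.12 and 4.80 at D28. Its D10 libraries were the highest 3 of the 12. Its fall from D10 to D28 was -1.46 (SE 0.26, adjusted p = 0.00018). Its rise at D10 against D7, 1.00 (SE 0.26, adjusted p = 0.0053), sat on the fold threshold and was not called with median-of-ratios scaling (0.93) or without D7 replicate 1 (0.87), D7 replicate 3 (0.998) or D10 replicate 1 (0.97).

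Fzd7, Fzd5 and Fzd6 were called in no comparison. Fzd7 lay between 10.30 and 10.98 in all libraries, Fzd5 between 8.69 and 9.84 and Fzd6 between 7.78 and 8.79. Fzd10 was near the 3-read level, at 0 to 0.74 at D7 and 1.87 to 3.10 at D8, and its higher calls at D8 and D10 against D7 were lost when low values were raised to that level (0.076 and 0.27). The D8 call was also lost without D7 replicate 1 or 3 or D8 replicate 1 or 2, and the D10 call without D7 replicate 1 or 3 or D10 replicate 3. As shares per kilobase of the 10 frizzleds, Fzd1 led at D7 with 26.2% ± 1.23 (SD, n = 3), before Fzd9 with 20.7% ± 1.62 and Fzd7 with 16.7% ± 0.691. At D10 Fzd7 led with 26.0% ± 3.43, before Fzd1 with 21.9% ± 0.731, and these intervals of 1 SD just met. At D28 Fzd9 made up 44.3% ± 3.02, before Fzd1 with 16.6% ± 2.25, Fzd8 with 10.7% ± 0.253 and Fzd4 with 10.4% ± 0.755, the last 2 within their spread. The summed frizzled level per kilobase went from 2277 ± 358 at D7 to 1709 ± 138 at D8 and 1116 ± 126 at D10, and came to 4470 ± 191 at D28. The D28 frizzled calls stood beside a summed adipocyte marker level of 14.8 to 15.2, against 11.9 to 12.1 at D7, and beside the other marker differences at D28 given above, and the D10 falls beside lower adipocyte and muscle markers, 4 lower chondrocyte markers, and 4 lower and 1 higher (Bglap) osteoblast markers, whose part was not tested.

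Of the beta-catenin co-receptors, Lrp5 was higher at D28 than at D7 and Lrp6 was called nowhere, while Ror1 and Ror2 were lower at D10 than at D7. Lrp5, which sets bone mass in mice and humans (chromosome 19, 3584828 to 3686564, minus strand), had 11.12, 11.16 and 11.33 at D7, 11.70, 11.27 and 11.52 at D8, 11.45, 11.55 and 11.44 at D10 and 12.16, 12.40 and 12.33 at D28. Its D28 libraries were the highest 3. The rise at D28 was 1.09 (SE 0.11, adjusted p = 2.3e-06) against D7, while the step from D10, 0.82, was under the fold threshold. Lrp6 (chromosome 6, 134446476 to 134566965, minus strand) had 11.91, 11.93 and 11.88 at D7, 11.64, 11.65 and 11.78 at D8, 11.29, 11.47 and 11.27 at D10 and 11.91, 11.99 and 11.94 at D28. Its lowest 3 values were at D10, with a difference from D7 of -0.56 (SE 0.09, adjusted p = 0.00014), too small to be called, and D28 against D7 was 0.04.

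Ror1 and Ror2 are the tyrosine kinase-like receptors of Wnt5a, and Ror2 is needed for normal limb cartilage. Ror1 (chromosome 4, 100095791 to 100444765, plus strand) held 9.05, 9.01 and 9.24 at D7, 8.22, 8.16 and 7.86 at D8, 7.00, 7.28 and 7.12 at D10 and 8.20, 7.92 and 8.19 at D28. Ror2 (chromosome 13, 53109312 to 53286124, minus strand) held 10.36, 10.23 and 10.56 at D7, 9.98, 10.01 and 10.35 at D8, 9.004, 9.13 and 9.09 at D10 and 9.99, 10.08 and 9.78 at D28. In both the D10 libraries were the lowest 3, while the ligand Wnt5a had its highest mean at D10. At D10, Ror1 was lower than at D7 by -1.97 (SE 0.15, adjusted p = 9.4e-08) and Ror2 by -1.31 (SE 0.13, adjusted p = 9.2e-07). From D10 to D28 the differences were 0.97 (SE 0.15, adjusted p = 6e-05) and 0.87 (SE 0.13, adjusted p = 3e-05), not called as deposited but called with median-of-ratios scaling (1.10 and 1.00). That of Ror1 was also called without D10 replicate 2 (1.04) or D28 replicate 2 (1.06). Ror1 at D28 against D7, -0.998, lay just inside the fold threshold and was called when any 1 of D7 replicates 1 and 2 and D28 replicates 1 and 3 was left out (-1.02 to -1.045). Its early fall, -1.02 at D8, was lost without D7 replicate 3 (-0.95) or D8 replicate 3 (-0.91), and the fall of Ror2 from D8 to D10, -1.04, was lost without D8 replicate 3 (-0.92). Ryk, an atypical Wnt receptor, lay between 11.32 and 11.66 in all libraries and was called nowhere.

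**Figure D4:**
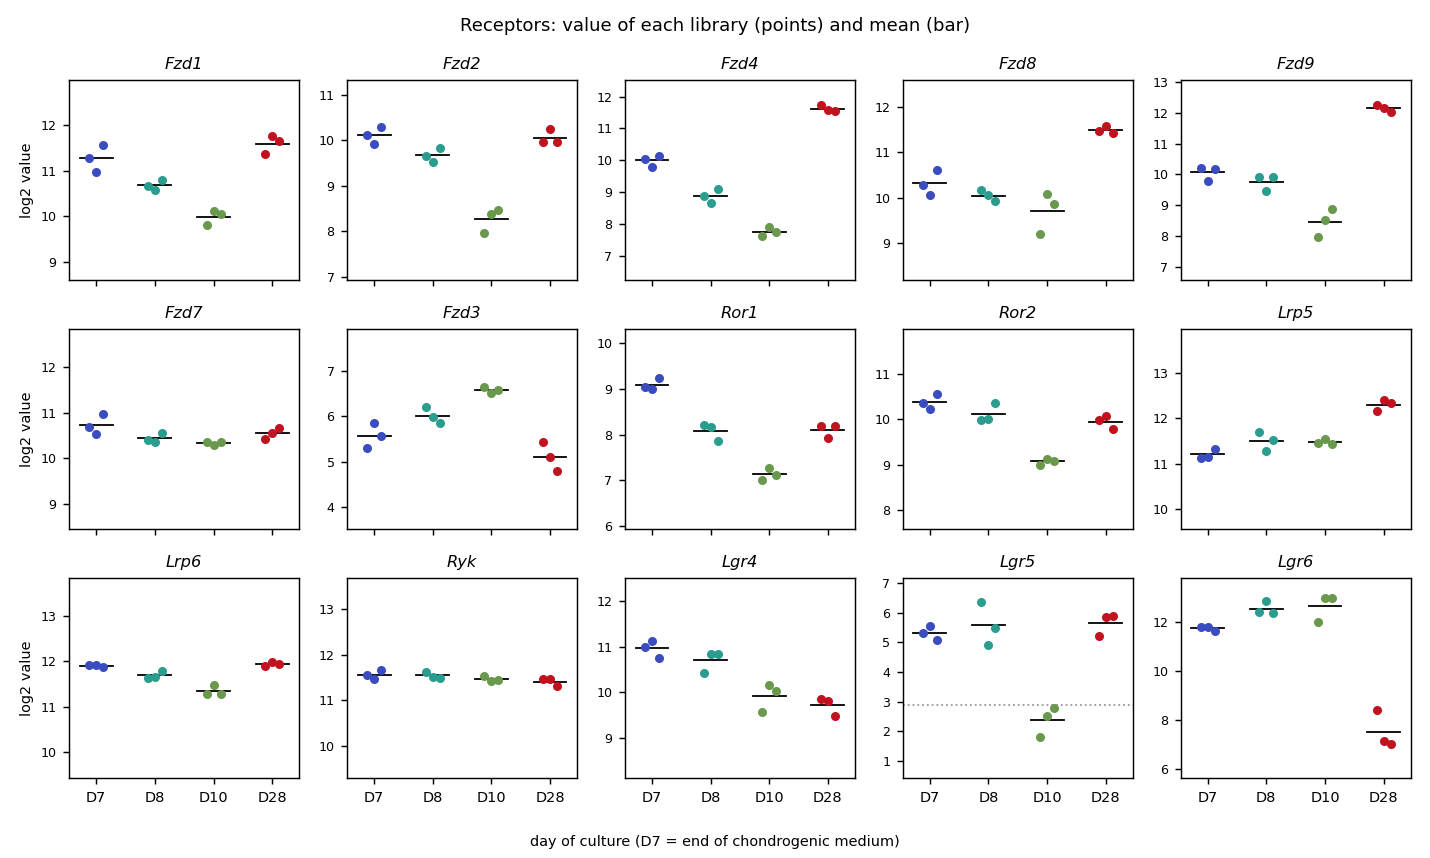
Deposited log2 value of each library (points) and the mean of 3 libraries (bar) for 15 receptors at D7, D8, D10 and D28; the y axes of single panels differ, and the dotted line in the Lgr5 panel is the 3-read level, 2.87. Fzd1, Fzd2, Fzd4, Fzd9, Ror1, Ror2 and Lgr5 are lowest at D10, and Lgr6 lies at 7.02 to 8.41 at D28 after 11.61 or more before.

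Of the 3 R-spondins, 2 were higher and 1 lower at D28 than at D7, and of their 3 receptors none was higher and 2 lower, beside 8.63% and 8.66% of all genes. The lower R-spondin call, that of Rspo1, was lost under several alternatives. Rspo3, which supports beta-catenin signalling in many tissues (chromosome 10, 29452416 to 29535867, minus strand), had 8.40, 8.31 and 8.66 at D7, 8.00, 7.93 and 7.95 at D8, 8.02, 7.93 and 7.60 at D10 and 9.69, 9.99 and 9.49 at D28. All D28 libraries lay above the rest. Rspo3 was higher at D28 by 1.26 (SE 0.16, adjusted p = 1.4e-05) against D7 and 1.87 against D10. Rspo2, which is needed for limb growth (chromosome 15, 43020794 to 43170826, minus strand), had 2.03, 3.45 and 3.26 at D7, 3.71, 2.17 and 3.79 at D8, 1.81, 2.03 and 1.97 at D10 and 6.58, 6.53 and 6.66 at D28. Its D10 libraries held no more than 3 reads each, so at D28 it was at least 13.2-fold higher than at D10 (adjusted p = 1.2e-06 in the limma fit), and against D7 the log2 fold change was 3.68 (SE 0.49, adjusted p = 2.7e-05), or 3.40 with low values raised to the 3-read level.

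Rspo1 (chromosome 4, 124986430 to 125009099, plus strand) went the opposite way, with 4.04, 5.62 and 5.69 at D7, 6.12, 7.01 and 6.26 at D8, 6.79, 6.98 and 7.04 at D10 and 3.95, 4.19 and 3.95 at D28. D7 replicate 1, at 4.04, lay apart from the other D7 libraries and within the D28 range. The rise at D10 against D7, 1.82 (SE 0.39, adjusted p = 0.0015), and the fall from D10 to D28, -2.91 (SE 0.39, adjusted p = 1.4e-05), held under all alternatives. The rise at D8, 1.35, became 0.81 without D7 replicate 1 and was also lost without D8 replicate 2. The fall at D28 against D7, -1.09, was lost without D7 replicate 2 or 3 or any 1 D28 library. Per kilobase, Rspo3 made up 84.8% ± 7.02 of the R-spondins at D7, 54.0% ± 5.83 at D10 and 91.0% ± 1.44 at D28, and Rspo1 14.1% ± 6.54, 45.6% ± 5.79 and 2.64% ± 0.202.

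Lgr6, known as a stem cell marker of skin and the leading R-spondin receptor up to D10 (chromosome 1, 134983301 to 135105276, minus strand), had 11.77, 11.80 and 11.61 at D7, 12.40, 12.82 and 12.35 at D8 and 11.97, 12.98 and 12.96 at D10. At D28 it had 8.41, 7.14 and 7.02. All D28 libraries were at least 3 below any other. The log2 fold change at D28 was -4.21 (SE 0.31, adjusted p = 5.3e-08) against D7, an 18.5-fold fall, and -5.12 (SE 0.31, adjusted p = 2.7e-09) against D10, a 34.7-fold fall. The difference at D10 against D7, 0.91 (SE 0.31, adjusted p = 0.027), was not called, but was without D10 replicate 1 (1.24).

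Lgr5, a stem cell marker of many epithelia (chromosome 10, 115450311 to 115587780, minus strand), had 5.31, 5.56 and 5.08 at D7, 6.38, 4.92 and 5.47 at D8, 1.81, 2.50 and 2.79 at D10 and 5.23, 5.85 and 5.89 at D28. It was near the 3-read level at D10 and level at the other time points. Its fall at D10 was -2.95 (SE 0.41, adjusted p = 3.3e-05) against D7 and its rise at D28 3.29 (SE 0.41, adjusted p = 6.1e-06) against D10. As 2 of its 3 D10 libraries were at no more than 3 reads, these are -2.44 and 2.78 with low values raised to that level, both still called. Lgr4 (chromosome 2, 109917647 to 110014257, plus strand) had 10.99, 11.13 and 10.75 at D7, 10.42, 10.84 and 10.83 at D8, 9.57, 10.15 and 10.02 at D10 and 9.85, 9.81 and 9.48 at D28. It was lower at D28 than at D7 by -1.24 (SE 0.16, adjusted p = 2.4e-05), and its fall at D10, -1.05, was lost without D7 replicate 2 (-0.96) or D10 replicate 1 (-0.87). Per kilobase, Lgr6 made up 59.2% ± 1.63 of the 3 receptors at D7, 74.8% ± 3.45 at D8 and 84.9% ± 2.60 at D10, and Lgr4 made up 81.2% ± 5.62 at D28. The summed receptor level per kilobase was 1142 ± 371 at D10 and 178 ± 32.3 at D28, while that of the R-spondins was 138 ± 7.06 and 302 ± 48.7. At D28, then, R-spondin transcripts were at their highest sum and those of their receptors at their lowest.

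Of the 8 target or feedback genes, none was higher and 1 lower (12.5%, beside 10.4% of all genes) at D10 than at D7, and 1 was higher (12.5%, beside 8.63%) and 2 lower (25%, beside 8.66%) at D28 than at D7. Tcf7, Nkd1, Nkd2 and Notum were called in at least 1 comparison, while Axin2, Lef1, Rnf43, Znrf3 and beta-catenin itself were called in none. For calls in at least 1 comparison the share of all genes was not counted. Ctnnb1 (chromosome 9, 120929216 to 120960507, plus strand) had 13.66, 13.61 and 13.68 at D7, 13.84, 13.91 and 13.83 at D8, 13.87, 14.11 and 14.10 at D10 and 13.86, 13.91 and 13.81 at D28. All 3 D7 libraries lay below the other 9. Its largest difference was 0.37 (SE 0.11, adjusted p = 0.01) at D10 against D7, which passed the adjusted test but not the fold threshold. Beta-catenin is controlled mainly through the stability of the protein, which was not measured here. Axin2, a negative regulator and the most general target of the pathway (chromosome 11, 108920349 to 108950783, plus strand), had 5.95, 5.72 and 5.78 at D7, 5.85, 5.63 and 5.56 at D8, 5.73, 5.68 and 6.02 at D10 and 6.23, 5.57 and 6.14 at D28. The time points overlapped, and the difference was -0.00 (SE 0.26, adjusted p = 1) at D10 and 0.17 (SE 0.26, adjusted p = 0.66) at D28 against D7. Lef1, a Tcf/Lef factor and target (chromosome 3, 131110471 to 131224356, plus strand), had 6.39, 6.06 and 6.55 at D7, 7.17, 6.60 and 6.66 at D8, 6.84, 6.63 and 6.62 at D10 and 7.01, 6.22 and 6.17 at D28. Its D8 libraries lay above those of D7 by 0.48 (SE 0.26, adjusted p = 0.21), not called, and D28 overlapped both.

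Tcf7, the other Tcf/Lef factor among the targets (chromosome 11, 52252371 to 52283014, minus strand), had 7.03, 6.77 and 6.82 at D7, 8.39, 8.28 and 7.61 at D8, 7.61, 7.53 and 7.66 at D10 and 5.97, 6.35 and 5.91 at D28. The D8 and D10 libraries lay above those of D7, and the D28 libraries below them. Tcf7 rose by 1.22 (SE 0.21, adjusted p = 0.00086) at D8 and fell by a log2 fold change of -1.52 (SE 0.21, adjusted p = 2.2e-05) between D10 and D28. At D10 and D28 it differed from D7 by 0.73 and -0.80, neither called.

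The feedback inhibitors went apart from each other. Nkd1, which acts on Dishevelled inside the cell (chromosome 8, 88521354 to 88594884, plus strand), had 9.24, 8.80 and 9.38 at D7, 8.59, 8.19 and 8.53 at D8, 7.56, 7.87 and 7.48 at D10 and 7.55, 7.43 and 7.39 at D28. It was lower than at D7 by -1.51 (SE 0.17, adjusted p = 5.6e-06) at D10 and -1.68 (SE 0.17, adjusted p = 2e-06) at D28. Its relative Nkd2 (chromosome 13, 73818534 to 73847631, minus strand) had 7.43, 6.89 and 7.00 at D7, 6.78, 7.21 and 6.91 at D8, 6.70, 7.25 and 7.05 at D10 and 4.72, 4.71 and 5.36 at D28. It overlapped over the first 3 time points and fell only then, with a log2 fold change of -2.18 (SE 0.25, adjusted p = 6.3e-06) at D28 against D7. Nkd1 at D28 overlapped its D10 range, with a difference of -0.18.

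Notum, a secreted enzyme that removes the lipid from Wnt proteins (chromosome 11, 120653788 to 120661175, minus strand), had 6.09, 5.24 and 6.07 at D7, 7.25, 6.53 and 6.33 at D8, 6.36, 6.47 and 6.35 at D10 and 8.67, 8.97 and 7.90 at D28. All D28 libraries lay above the other 9. It rose by 2.71 (SE 0.31, adjusted p = 5.7e-06) against D7 and 2.12 (SE 0.31, adjusted p = 3.4e-05) against D10, and its D8 difference, 0.90 (SE 0.31, adjusted p = 0.051), was called only without D7 replicate 3 (1.04) or D8 replicate 3 (1.09). Of its merged exon length, 38.1% is shared with genes on the other strand, Notumos and Myadml2os. Notumos held 3.55, 4.71 and 4.22 at D28 and at most 3.68 before, while Myadml2os was at most 1.12 in all libraries. The library kit marks strand, but the strand setting of the counting is not given in the sources used here, so reads of Notum and Notumos may not have been told apart. Exons of 9 other members overlap genes on the other strand, among them Fzd5 (17.8% of its exon length), Ctnnb1 (14.6%, with Ulk4), Lef1 (13.8%), Rspo3 (13.1%), Wnt11 (8.80%) and Wnt7b (6.61%). Znrf3 and Rnf43, the ligases that remove frizzleds, were not called: Znrf3 lay between 7.54 and 8.79, with D28 against D10 at -0.991 (SE 0.15, adjusted p = 4.6e-05), just inside the fold threshold, and Rnf43 lay between 0.87 and 4.11. Znrf3 was called there when any 1 of D10 replicates 2 and 3 and D28 replicates 1 and 3 was left out (-1.0015 to -1.053). Rnf43 at D28 against D7, at few reads, was -1.65 and was called only without D28 replicate 3 (-2.33, adjusted p = 0.022 by limma), and was -0.63 with low values raised to the 3-read level.

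**Figure D5:**
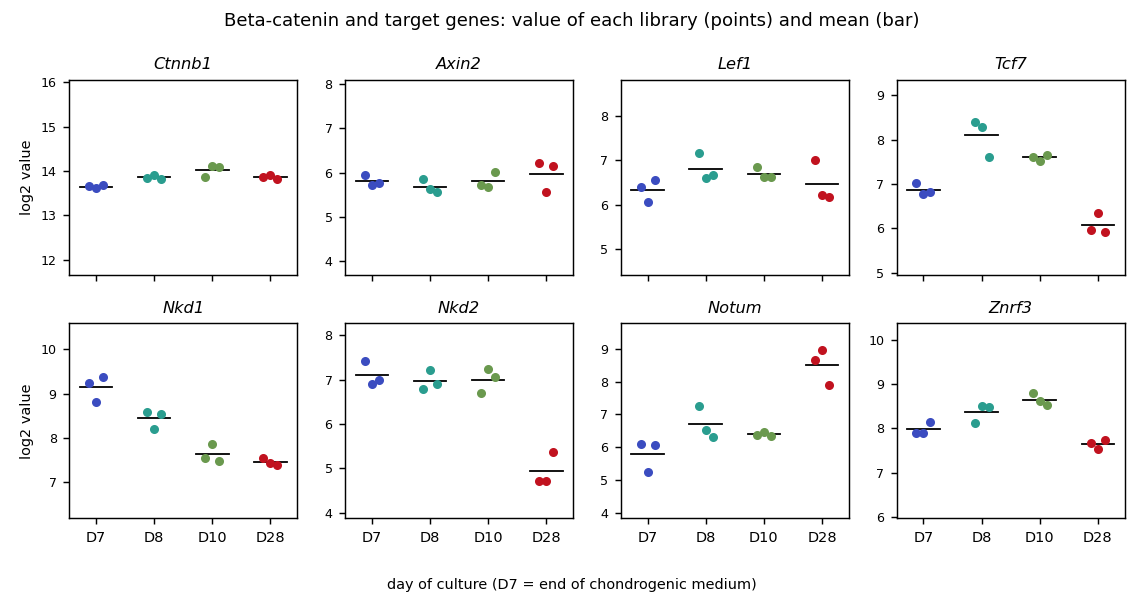
Deposited log2 value of each library (points) and the mean of 3 libraries (bar) for beta-catenin (Ctnnb1) and 7 target or feedback genes at D7, D8, D10 and D28. Ctnnb1, Axin2 and Lef1 have no called difference, with Ctnnb1 at 13.61 to 13.68 at D7 and 13.81 or more later, Nkd1 falls from 8.80 or more at D7 to 7.55 or less at D28, and Notum is at 7.90 to 8.97 at D28.

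Other genes of the pathway were read from 4 lists. Of 27 genes of Wnt secretion and signal transduction, none was higher (beside 8.50% of all genes) and 3 lower (11.1%, beside 10.4%) at D10 than at D7, with a median difference of -0.071 beside 0.053 over all genes, and 2 were higher (7.41%, beside 8.63%) and 1 lower (3.7%, beside 8.66%) at D28 than at D7, with a median of 0.0365 beside -0.032. Between D10 and D28, 6 were higher (22.2%, beside 13.8%) and 1 lower (3.7%, beside 13.7%). Porcn, the enzyme that attaches the lipid to Wnt proteins, had 10.53, 9.53 and 11.06 at D7, 7.86, 8.17 and 7.59 at D10 and 8.44, 8.76 and 8.56 at D28, and was lower by -2.50 (SE 0.27, adjusted p = 2.8e-06) at D10 and -1.79 at D28. Tcf7l1, mainly a repressor of target genes, was lower at D10 (-1.03) and higher at D28 (1.40) than at D7. Tcf7l2 was higher at D28 (1.09), and Bcl9l, a beta-catenin co-activator, was lower at D10 (-1.08).

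The secreted antagonists had the most calls for their number among the 4 lists. Sfrp genes, Frzb and Wif1 encode proteins that bind Wnt ligands, and Dkk1, Dkk2, Sost and Sostdc1 proteins that bind the Lrp co-receptors. Of the 13 listed, 10 could be tested. Dkk4 was at 0 in all libraries, Sost at no more than 3 reads, and Cer1 at 0 in all but D28 replicate 1 (2.68). At D10 against D7, 1 was higher (10%, beside 8.50% of all genes) and 6 lower (60%, beside 10.4%), with a median of -2.64, and at D28 against D7, 7 were higher (70%, beside 8.63%) and none lower, with a median of 1.99, or 1.69 with genes at or under 3 reads at their bound. Frzb had 11.54, 11.44 and 11.28 at D7, 11.28, 11.04 and 11.89 at D8, 8.03, 8.19 and 8.34 at D10 and 16.64, 16.69 and 16.58 at D28, a log2 fold change of -3.24 (SE 0.16, adjusted p = 2e-09) at D10 and 5.22 (SE 0.16, adjusted p = 7.6e-12) at D28 against D7. At D10 Sfrp5 (-4.40), Sfrp1 (-3.62), Sfrp2 (-3.31), Dkk3 (-2.69) and Wif1 (-2.59) were also lower than at D7, and Sfrp4 was higher (1.97), the last 3 being named beyond the 4 largest so that the list is complete. At D28 Dkk2 was higher than at D7 by 3.25 (SE 0.33, adjusted p = 1.6e-06). Dkk1 was at 0 in all libraries before D28 and at 5.68, 4.53 and 3.37 there, at least 3.15-fold higher than at D7. Sostdc1 had no more than 3 reads in the D7 libraries and 6.58, 6.13 and 6.78 at D28, at least 12.3-fold higher.

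Of 21 genes of planar polarity and the Wnt-calcium branch, 2 were higher (9.52%, beside 8.50% of all genes) and 4 lower (19%, beside 10.4%) at D10 than at D7, with a median of -0.12, and 1 was higher (4.76%, beside 8.63%) and 5 lower (23.8%, beside 8.66%) at D28, with a median of -0.18. At D10 Daam2 (-2.92), Celsr2 (-2.33), Ptk7 (-1.37) and Prickle1 (-1.36) were lower. Celsr2 and Ptk7 belong, like Ror2 and Fzd3, to the receptors of planar polarity. Fzd3 went the other way, with a mean of 5.57 at D7 and 6.58 at D10, and Celsr1 and Celsr3 were not among the lower calls. At D28 Celsr1 was at no more than 3 reads and at least 1.62-fold lower than at D7, and Camk2a (-2.02), Celsr2 (-1.70) and Nfatc1 (-1.25) were lower. Of 11 further beta-catenin target genes tested, 3 were higher (27.3%, beside 8.50%) and 2 lower (18.2%, beside 10.4%) at D10, with a median of -0.24, and at D28 1 was higher and 1 lower (9.09% each, beside 8.63% and 8.66%), with a median of -0.27. Tnfrsf19 was lower at D10 (-3.41, or -2.31 with its 2 lowest D10 libraries raised to the 3-read level), while Tnfrsf11b, the decoy receptor that restrains osteoclasts (1.71), Myc (1.55) and Cd44 (1.20) were higher. At D28 Ccn4 was lower (-2.55) and Apcdd1, a membrane inhibitor of Wnt signalling, higher (1.71).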

How the data were processed

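RNA from pellet cultures was sequenced in 12 libraries, 3 at each of 4 time points. The authors' processing notes name Trimmomatic 0.36, HISAT2, Cufflinks and HTSeq with the build GRCm38, while the supplementary methods name a human build. The table lists mouse symbols, and positions here are those of GRCm38. The deposited unit is log2, the log2 of a read count per gene that the authors equalized between libraries, with 1 added to each count first, given for each replicate. Equalizing removes differences in library totals and makes each value relative to its library.

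The whole table was fitted with limma 3.58.1 in R 4.3.3, with 1 coefficient per time point, a variance prior that followed mean expression, 8 residual and 7.23 prior degrees of freedom and moderated two-sided tests. Genes that reached a log2 value of 1 in 3 or more libraries entered (17674, with 10570 left out), and p-values were adjusted over them by Benjamini-Hochberg. The step was tested on simulated data. Exon lengths, positions and overlaps came from GENCODE M21, promoters from RefSeq GRCm38.p6, and numpy 2.4.6, pandas 2.3.3 and matplotlib 3.10.9 were run in Python 3.11.15. Read levels and relative depth were taken from the steps of low values, over 562 genes. The median absolute difference between replicates was 0.147 to 0.333, so no libraries were counted as 1.

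The members and the gene lists were chosen with earlier results of these data known. A member was given library by library when it was called and reached a mean of at least 5 at some time point, or was Ctnnb1, Lrp5, Lrp6, Axin2, Lef1 or Tcf7. Genes of other lists were named when called at D10 or D28 against D7, at most 4 per list and comparison. Alternatives covered the filter on low values, scaling by median of ratios, low values raised to the 3-read level, the study's rule of an unadjusted test with a fold threshold, no fold threshold, a block for the replicate number, each library left out, and the transcript length.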

Additional observations from a re-analysis of the deposited data

How the results depend on the processing

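The number of members called in each comparison stayed within 1.5 times of that reported under all 19 alternatives: between 6 and 12 for D8 against D7, 8 and 16 for D10 against D8, 16 and 27 for D10 against D7, 20 and 28 for D28 against D10, and 17 and 23 for D28 against D7. Of the 77 single calls, 61 were kept under every alternative and 0 reversed direction, and 10 were lost when low values were raised to the 3-read level. With median-of-ratios scaling the median of all genes for D28 against D10 was 0.0075 in place of -0.10. Of the members with calls, Fzd10 and Wnt6 were not tested with a mean of at least 3. Replicate numbers showed no detectable pairing: same-numbered libraries of different time points had deviations correlated between -0.058 and 0.066 over 18 pairs. Different-numbered ones lay between -0.071 and 0.094. Such weak correlations cannot show that the cultures were not paired. With a replicate block, 0 calls were lost and 1 was gained, Wnt16 at D28 against D7 (-1.51, adjusted p = 0.049 by limma), and the member counts were 8, 11, 18, 22 and 19. Of 62 shares of at least 5%, 8 moved by over 1 SD with the longest transcript, and the largest families' leading genes changed only for ligands at D10. Members at a few reads are limited by depth, and their absence was not detectable as such.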
